A study of Mus musculus with 42 samples.

Results

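CT26 and MC38 are transplantable mouse lines that the labels class as colorectal adenocarcinoma, and their untreated profiles are compared here. The libraries were chosen by their labels alone: the 3 DMSO libraries of CT26 and the 3 DMSO libraries of MC38, which are 6 of the 42 RNA-seq libraries of a study of 7 mouse cancer lines. The study asked how the lines respond to RECTAS, a small molecule that modifies splicing, and each line was sampled with the vehicle or with 10 µM of the compound. No RECTAS library enters the comparison itself. Both groups had been in 0.1% DMSO for 6 h, both lines grew in RPMI-1640 with 10% fetal bovine serum, and both libraries were made from polyadenylated RNA with a stranded mRNA kit, so medium, vehicle and kit were shared. Each group is a single cell line, so every difference is between these 2 lines, and the labels do not say that replicates came from separate cultures, so a p-value here speaks to the scatter of these libraries, which may be technical. These are bulk values, in which fewer cells with a transcript and less RNA per cell cannot be told apart. CT26 is known to come from a BALB/c mouse and MC38 from a C57BL/6 mouse, so the line and the mouse strain cannot be told apart in any value below.

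Both lines are standard grafts for testing immunotherapy in immunocompetent mice, in which tumour cells are recognised through peptides on major histocompatibility complex (MHC) class I molecules. Carcinoma cells kept in culture often lose adhesion molecules and cytokeratins of the gut epithelium and take on transcripts of mesenchymal cells, such as collagens, vimentin and the Twist and Zeb factors. Growth factor receptors signal through RAS and ERK, bone morphogenetic proteins (BMPs) and TGF-beta signal through SMAD proteins, and p53 and the CDK inhibitors hold back the cell cycle; tumour lines differ in which of these they keep.

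Expression was given as TPM, a level that is divided by transcript length and scaled to the same total in each library. The 12365 genes whose mean over the 6 libraries reached 1 TPM were tested with limma on log2(TPM + 1), and every log2 difference below is CT26 minus MC38 on that scale, which understates the change of low genes. Where a pair of values is given without names, that of CT26 comes first. A gene was called when its Benjamini-Hochberg adjusted p was under 0.05 and its log2 difference at least 1 in size. The strand setting of the counting is not stated, so levels of genes that overlap another on the opposite strand are uncertain; besides those named below they include Psmb8, Esm1, Fst, Ccl2, Cdkn1a, H2-T23 and Laptm4b, each overlapped by an antisense gene. The tables hold no read counts, so depth is unknown and no counting interval can be given. Libraries of a line correlated across genes with Pearson's r from 0.988 to 0.992, against 0.815 to 0.821 between the lines, and each library held 11820 to 11990 genes at 1 TPM or more. Transcripts encoded in the mitochondrial genome took 5.01% ± 0.216 (SD, n = 3) of the TPM in CT26 and 8.30% ± 0.281 in MC38, with no overlap between the lines (exact two-sided permutation test p = 0.1, the smallest that 3 against 3 libraries allow). The part of that share in the differences below was not tested.

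Most defining transcripts of gut epithelium were near 0 in both lines. Cdh1, which encodes E-cadherin, was listed at 0 in all 3 CT26 libraries and at 0.06, 0.09 and 0.06 TPM in MC38. Epcam, the epithelial adhesion molecule used to sort carcinoma cells, read 0.14, 0.46 and 0.23 TPM in CT26 and 0 in the 3 MC38 libraries. Of the 18 genes of epithelial adhesion and keratins, 16 were below the mean of 1 TPM, among them Krt8, Krt18, Krt19, Cldn4 and Esrp1, and so were 16 of 20 intestinal genes, among them Vil1, Lgr5, Hnf4a and Cdx1. Markers of other cell types were mostly low: of leukocyte genes, Ptprc, Cd3e, Adgre1 and Csf1r had means of at most 0.17 TPM in both lines. The 3 tested members of that list were higher in CT26, namely Cd14 at 15.5 and 7.23 TPM, Cd68 at 3.73 and 2.19 TPM and Mpo at 3.62 and 0 TPM, and the summed level of the 18 leukocyte genes was 26.0 ± 0.384 TPM in CT26 and 11.7 ± 0.717 TPM in MC38. The part of other cells in the results was not tested. Mesenchymal transcripts were abundant in both, with 16 of 18 listed genes at 1 TPM or more in CT26 and 14 of 18 in MC38.

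CT26 had a few keratin and intestinal genes that were at or near 0 or lower in MC38. Krt20, the keratin of differentiated gut epithelium, read 592, 585 and 597 TPM in CT26 and 0.08, 0.02 and 0.02 TPM in MC38. The CT26 libraries lay far above MC38, and the means of the 5 other lines were at most 0.06 TPM. Cdx2, the homeobox factor that specifies intestine, read 6.64, 7.36 and 6.30 TPM in CT26, was listed at 0 in the 3 MC38 libraries and had a mean of 11.2 TPM in Pan02, a pancreatic line. Klf5, a factor of proliferating crypt cells, was at 19.01 ± 0.392 TPM in CT26 and 3.26 ± 0.286 TPM in MC38, a log2 difference of 2.23 (SE 0.063, adjusted p = 1.2e-07).

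Across all genes tested, 1522 (12.3%) were called higher in CT26 and 1563 (12.6%) higher in MC38. Without the fold, 4498 genes (36.4%) were higher in CT26 and 5401 (43.7%) in MC38 at an adjusted p under 0.05, 80.1% of all tested, and the libraries of the lines did not overlap for 10097 genes (81.7%). A significant difference was thus the usual state of a gene, and the counts below use the fold. The median log2 difference was -0.07, or 0.001 with median-ratio scaling, and the median of its size was 0.52. Large differences lay more often on the CT26 side: 337 called genes were higher in CT26 by a log2 of 3 or more, and 214 were higher in MC38. Of these, 56 and 4 were processed pseudogenes, a class with uncertain single-gene values that is taken up below.

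**Figure D1:**
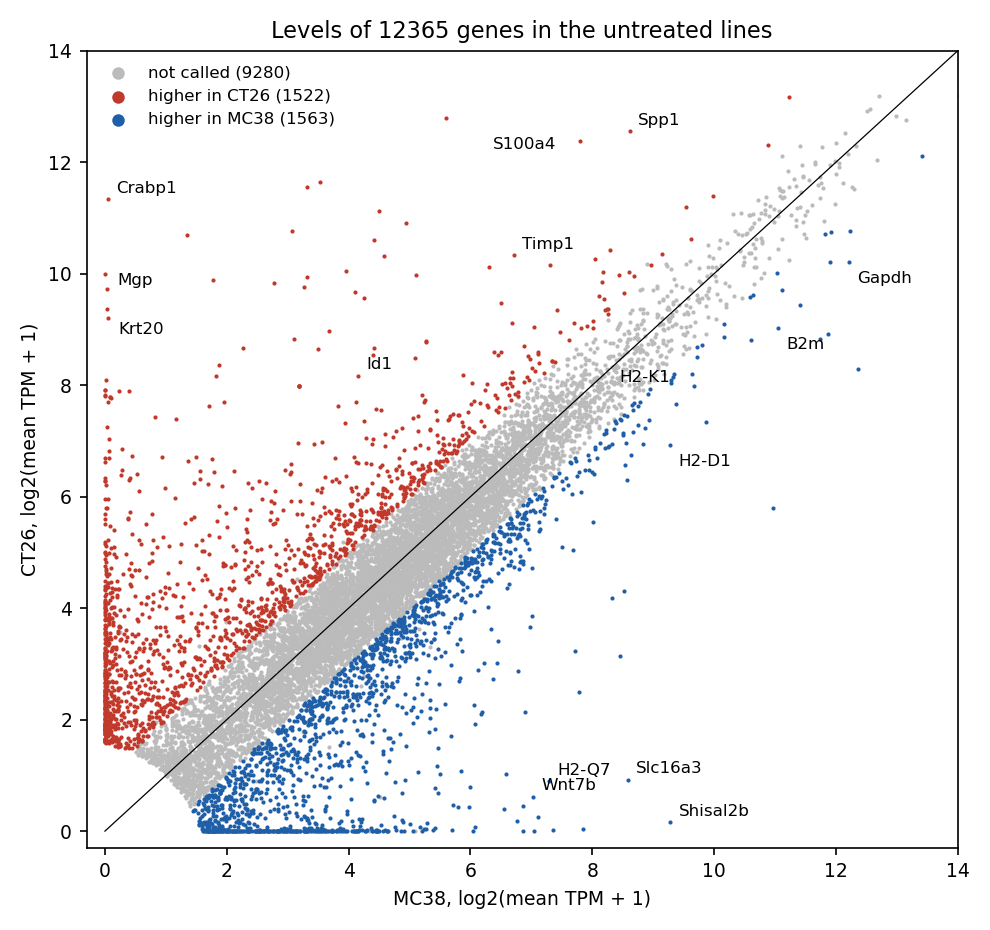
Mean level of each of 12365 tested genes in MC38 (horizontal axis) and CT26 (vertical axis), both as log2(mean TPM + 1) over 3 libraries, with genes called higher in CT26 in red, genes called higher in MC38 in blue and the line of equal levels in black. Crabp1, Mgp and Krt20 stand at the left edge near 0 in MC38, and Shisal2b, Slc16a3 and Wnt7b at the lower edge near 0 in CT26.

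The largest difference was that of Crabp1, which encodes a cytoplasmic carrier of retinoic acid. Crabp1 read 2567, 2589 and 2578 TPM in the CT26 libraries and 0, 0 and 0.11 TPM in MC38, a log2 difference of 11.28 (SE 0.046, adjusted p = 9.15e-11). Its mean was 66.4 TPM in LLC and 0 in the 4 other lines of the series. With predicted genes and pseudogenes left out, next came Mgp, the matrix Gla protein that inhibits calcification, at 842 ± 7.72 TPM in CT26 and 0.0233 ± 0.0404 TPM in MC38. Baiap2l1, an actin and membrane adaptor, was at 663 ± 4.28 TPM against 0.0267 ± 0.0379 TPM; the gene overlaps Bri3, Dmrt1i and Gm15708 on the opposite strand. The other genes among the 12 with the largest CT26 excess were Krt20, Esm1, Rpl39l, Igfbp3, Lgals7, Col1a2, Crip1, Fst and Ifitm1. Of these, the secreted proteins Esm1 (an endothelial proteoglycan) and Igfbp3 (a carrier of insulin-like growth factors) had CT26 means of 273 and 222 TPM.

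On the MC38 side the first gene was Shisal2b, a member of the Shisa-like family of membrane proteins. Shisal2b read 594, 655 and 609 TPM in MC38 and 0.35, 0 and 0 TPM in CT26, a log2 difference of -9.13 (SE 0.121, adjusted p = 5.31e-09). The highest mean of the 5 other lines was 0.0933 TPM, so that among the 7 lines the transcript was abundant in MC38 alone. Slc16a3, which encodes the lactate exporter MCT4, was at 0.897 ± 0.235 TPM in CT26 and 382 ± 2.91 TPM in MC38, and Ldhb, a lactate dehydrogenase subunit, at 0.05 ± 0.0624 and 66.6 ± 2.35 TPM. Both also had high means in some other lines, LLC and WEHI3 for Slc16a3 and B16 for Ldhb. The remaining genes of the MC38 set of 12 were Fabp5, Klra4, Col6a3, Gatm, Prl2c2, Wnt7b, H2-Q7, H2aj and Cox6a2. Prl2c2 has the near-identical copy Prl2c3 and H2-Q7 the copy H2-Q5, so these TPM are uncertain between copies.

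**Figure D2:**
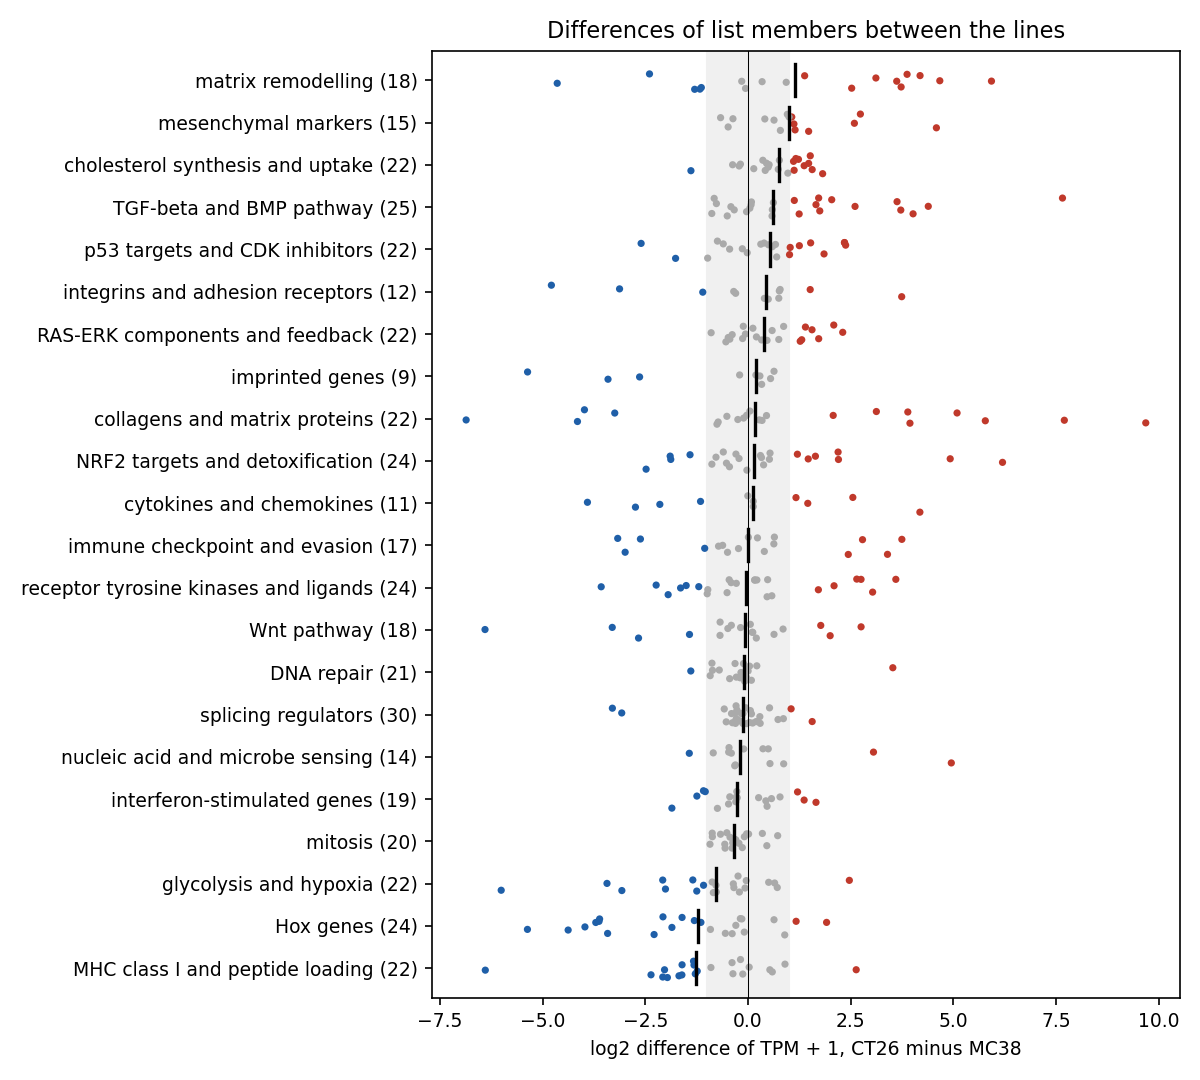
Log2 differences (CT26 minus MC38, of TPM + 1) of the tested members of 22 gene lists, with 1 point a gene, called genes in red (higher in CT26) or blue (higher in MC38), the number tested in brackets, a black bar at the median and the range within a fold of 2 in grey. Medians run from 1.16 for matrix remodelling to -1.26 for MHC class I and peptide loading.

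Gene lists were described by counts and medians, with the 12.3% and 12.6% of all tested genes as the background. MHC class I and peptide loading stood at the MC38 end of the medians, with 12 of 22 members called higher in MC38 and 1 in CT26, and a median log2 difference of -1.26. Among the 22 lists plotted, matrix remodelling stood at the other end, with 9 of 18 called higher in CT26 and 5 in MC38 (median 1.16). Mitosis had no member of 20 called in either direction, although limma put 3 members higher in CT26 and 13 higher in MC38 at an adjusted p under 0.05 without the fold. Cdk1, the mitotic kinase, came closest to the fold, at 405 ± 16.9 TPM in CT26 and 769 ± 5.1 TPM in MC38. DNA repair had 1 call in each direction among 21. The call on the CT26 side was Ercc1, a subunit of an excision nuclease, at 442 ± 13.9 TPM in CT26 and 37.5 ± 2.81 TPM in MC38. The Ercc1 level of CT26 was outside the range of the 5 other lines, 9.43 to 44.8 TPM, and the gene overlaps Cd3eap on the opposite strand.

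Transcripts of the class I antigen presentation pathway were higher in MC38 for the classical heavy chains, the light chain, the immunoproteasome and the peptide transporter, and higher in CT26 for the non-classical heavy chain gene H2-T23. H2-K1, a classical heavy chain gene (chr17:33996017-34000347, minus strand, GRCm38), read 262, 245 and 253 TPM in CT26 and 824, 806 and 808 TPM in MC38. H2-D1, the other classical heavy chain (chr17:35262730-35267499, plus strand), read 120, 119 and 122 TPM against 629, 616 and 621 TPM. B2m, the invariant light chain (chr2:122147686-122153083, plus strand), read 521, 520 and 517 TPM against 2151, 2117 and 2114 TPM. In each of the 3 genes the lines were separated by a wide gap beside a narrow spread, and the log2 differences were -1.68 (SE 0.03, adjusted p = 1.68e-08), -2.36 (SE 0.021, adjusted p = 1.23e-09) and -2.03 (SE 0.019, adjusted p = 1.5e-09).

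Psmb8, the immunoproteasome subunit LMP7, was at 26.8 ± 0.273 TPM in CT26 and 116 ± 2.46 TPM in MC38, and the subunits Psmb9 and Psmb10 were also called, at 2.87 against 8.63 TPM and 39.5 against 100.7 TPM. The transporter genes Tap1 and Tap2 were at 5.71 against 19.4 TPM and 9.57 against 24.7 TPM. Nlrc5, the transactivator of class I genes, was at 1.72 ± 0.0924 TPM and 7.31 ± 0.884 TPM, a log2 difference of -1.60 (SE 0.089, adjusted p = 3.17e-06). The chaperones went apart: Canx (calnexin) was at 94.2 TPM in CT26 and 370 TPM in MC38, while Calr (calreticulin) was at 842 and 450 TPM, a log2 difference of 0.90 that passed the test but not the fold. The call in the other direction was H2-T23, the mouse gene of the non-classical molecule Qa-1, which read 7.64, 7.38 and 8.14 TPM in CT26 and 0.40, 0.53 and 0.29 TPM in MC38 (log2 difference 2.63, SE 0.086, adjusted p = 2.31e-07). H2-Q7, also outside the classical pair, lay on the MC38 side, at 0.86 ± 0.0855 and 155.5 ± 0.386 TPM, values uncertain between copies. The heavy chain genes lie in the H2 region, which is highly polymorphic between mouse strains, and what part allele differences have in the H2 values was not tested.

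Promoter windows of 300 bases (250 before to 50 after the start) of the class I genes are shown because the heavy chain and light chain genes differed together. The sequences are those of RefSeq on GRCm38.p6, 5′ to 3′ on the gene's strand. Capitals mark the kappaB element GGGATTCCC in H2-K1 (chr17:34000284-34000583, minus strand) and H2-D1 (chr17:35262844-35263143, plus strand), and the interferon-stimulated response element GAAANNGAA in B2m (chr2:122147437-122147736, plus strand).
H2-K1: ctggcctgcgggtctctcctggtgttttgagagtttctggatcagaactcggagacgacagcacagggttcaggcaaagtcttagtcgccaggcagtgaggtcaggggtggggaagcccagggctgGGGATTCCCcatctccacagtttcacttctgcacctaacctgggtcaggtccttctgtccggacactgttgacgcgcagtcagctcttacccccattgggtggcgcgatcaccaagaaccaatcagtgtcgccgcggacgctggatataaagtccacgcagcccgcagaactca
H2-D1: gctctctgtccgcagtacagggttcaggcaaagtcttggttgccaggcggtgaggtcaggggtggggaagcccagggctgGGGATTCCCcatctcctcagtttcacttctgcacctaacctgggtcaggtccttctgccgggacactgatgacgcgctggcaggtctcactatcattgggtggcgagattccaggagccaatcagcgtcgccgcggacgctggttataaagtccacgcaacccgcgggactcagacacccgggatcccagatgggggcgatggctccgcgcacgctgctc
B2m: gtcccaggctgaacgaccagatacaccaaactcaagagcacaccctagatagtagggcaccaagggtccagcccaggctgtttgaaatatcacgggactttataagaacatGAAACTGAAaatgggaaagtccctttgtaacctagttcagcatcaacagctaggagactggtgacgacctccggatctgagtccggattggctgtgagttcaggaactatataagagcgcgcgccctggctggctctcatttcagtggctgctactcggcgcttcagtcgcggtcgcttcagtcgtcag
The kappaB letters, searched on both strands, were found in the windows of 3 of the 19 class I genes that have a window. They were found in 0.414% of all 27025 genes with one. The 3 genes, H2-K1, H2-D1 and H2-Q7, were called higher in MC38, as were 12 of the 22 members of the whole list. The windows of H2-K1 and H2-D1 share the bases around the element, so they are not separate cases of the motif. The response element letters were found in 5 of the 19 (B2m, Erap1, H2-T22, H2-T23 and Psme1) and in 9.76% of all genes; an overlap of the 2 motifs was not looked for. Of those 5, B2m was called higher in MC38, H2-T22 was higher in MC38 without reaching the fold, H2-T23 was called higher in CT26, and Erap1 and Psme1 were higher in CT26 without reaching the fold. Psme1, a subunit of the proteasome activator, was at 82.9 ± 3.9 TPM in CT26 and 56.9 ± 0.45 TPM in MC38. The genes with these response element letters thus lay on both sides. Only GAAANNGAA was searched, on both strands. A window without a match may hold another form of the element, in H2-K1 and H2-D1 as elsewhere. A match is a description of the reference window, not of either line.

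**Figure D3:**
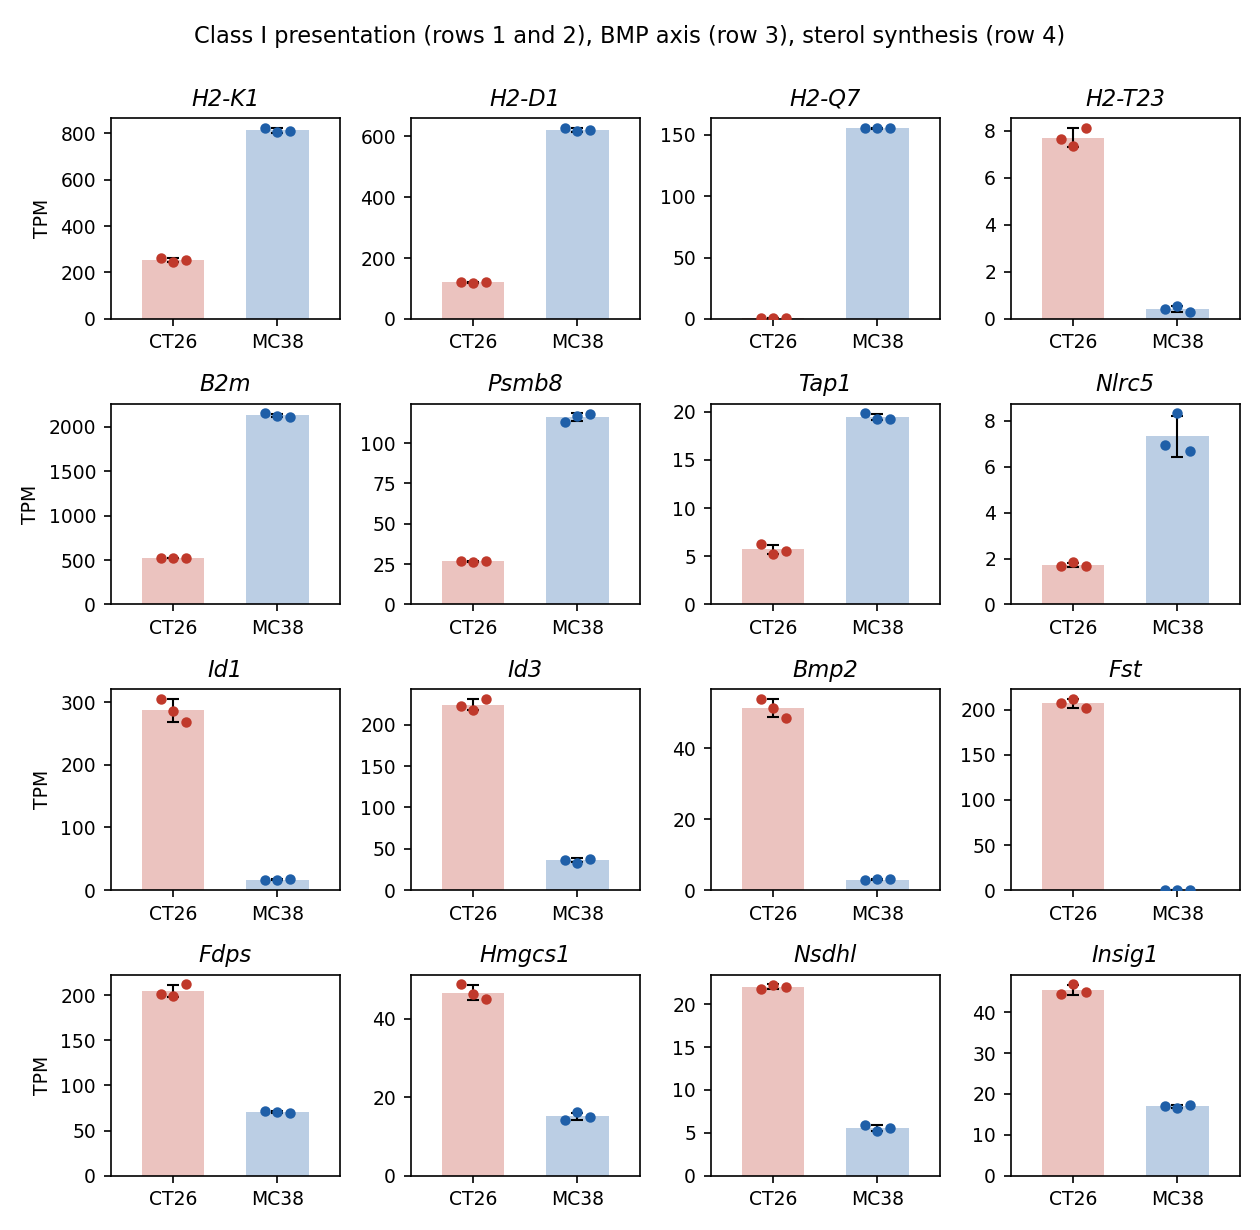
TPM of 16 genes in the 3 CT26 libraries (red points) and 3 MC38 libraries (blue points), with bars for the mean and whiskers for the SD, each panel on its own axis from 0. H2-K1, H2-D1, H2-Q7, B2m, Psmb8, Tap1 and Nlrc5 are higher in MC38, the other 9 genes are higher in CT26, and in no panel do the libraries of the lines overlap. Such a lack of overlap held for 81.7% of all genes tested.

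Interferon-stimulated genes did not follow the class I genes as a group. Of 19 tested members, 3 were called higher in CT26 and 4 higher in MC38, and the median log2 difference was -0.27; 15 of the 34 genes were below the mean of 1 TPM, among them Mx1, Usp18, Irf7 and Rsad2. Bst2 (tetherin) was at 79.4 ± 2.31 TPM in CT26 and 189 ± 0.541 TPM in MC38, and Xaf1, an apoptosis factor, at 2.06 ± 0.25 and 10.0 ± 0.492 TPM. Ifi27 went the other way, at 52.97 ± 4.37 and 19.9 ± 1.78 TPM. Irf1, the factor that drives class I genes, was at 18.1 ± 1.6 and 38.3 ± 2.36 TPM, a log2 difference of -1.04 that fell under the fold at -0.98 in the RECTAS libraries.

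Among sensors of nucleic acids, Sting1, the adaptor of cytosolic DNA sensing, read 40.2, 43.2 and 37.5 TPM in CT26 and 3.96, 2.92 and 5.28 TPM in MC38. MC38 was the lowest of the 7 lines, since the means of the other lines ran from 20.4 to 59.8 TPM. Cgas, which makes the second messenger that activates the STING protein, was at 12.4 and 17.4 TPM and was not called. Ifi204, an interferon-inducible DNA sensor, was at 33.1 ± 1.52 TPM in CT26 and 0.103 ± 0.0231 TPM in MC38; it has the near-identical copies Ifi211 and Mndal. Aim2, the inflammasome sensor of DNA, lay on the MC38 side at 0.497 ± 0.155 and 3.02 ± 0.28 TPM.

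Cytokines and chemokines were called 4 times in each direction among 11 tested members. MC38 had more Ccl2, which attracts monocytes, at 6.41, 6.58 and 6.07 TPM in CT26 against 111, 114 and 104 TPM in MC38, a log2 difference of -3.91 (SE 0.049, adjusted p = 4.59e-09). Ccl7, its neighbour on chromosome 11, was at 0.177 ± 0.0306 and 6.89 ± 0.791 TPM, and Cxcl10, which attracts T cells, at 2.92 ± 1.13 and 15.95 ± 2.21 TPM. CT26 had more Cx3cl1 (fractalkine), at 18.2 ± 0.506 TPM against 0.0567 ± 0.0723 TPM, and more Il11, at 8.76 ± 0.741 against 0.663 ± 0.134 TPM.

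Ligands of T cells and natural killer cells differed gene by gene, with 4 calls in each direction among 17 tested members of the checkpoint list. Cd274 (PD-L1) was low in both, at 0.71, 0.72 and 0.77 TPM in CT26 and 1.55, 1.70 and 1.73 TPM in MC38, and its log2 difference of -0.62 (adjusted p = 0.00019) passed the test without reaching the fold. Pdcd1lg2 (PD-L2) read 5.73, 5.83 and 6.18 TPM in CT26 and was listed at 0 in MC38. Cd80, the costimulatory ligand of CD28 and CTLA-4, was at 13.1 ± 0.361 TPM in CT26 and 0.0467 ± 0.0153 TPM in MC38, and the highest mean of the 5 other lines was 2.35 TPM. Cd276 (B7-H3) was at 19.9 ± 0.665 and 0.98 ± 0.0916 TPM. Ligands of the activating receptor NKG2D split: Raet1e and Raet1d were at 10.8 and 11.3 TPM in MC38 and under 1 TPM in CT26, while H60b read 4.86, 4.38 and 4.09 TPM in CT26 and was listed at 0 in MC38. In the annotation Raet1e overlaps the other two on the same strand, so reads may be split between them.

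BMP and TGF-beta signalling showed calls on the CT26 side alone: 12 of 25 tested members were called higher in CT26 and 0 higher in MC38, with 6 members higher in MC38 by the test without the fold. Id1, an inhibitor of differentiation and an immediate BMP target, read 305, 287 and 269 TPM in CT26 and 16.9, 15.9 and 17.4 TPM in MC38 (log2 difference 4.02, SE 0.054, adjusted p = 5.57e-09). Id2 and Id3, of the same family, were at 67.4 against 15.6 TPM and 224 against 36.03 TPM. The ligands Bmp2 and Bmp4 were at 51.2 ± 2.62 TPM and 12.1 ± 2.38 TPM in CT26 and at 2.96 ± 0.171 TPM and 0.0467 ± 0.0503 TPM in MC38. The mean of Bmp2 was at most 0.00667 TPM in the 5 other lines.

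Antagonists were also higher in CT26. Fst (follistatin), which binds activins and BMPs, read 207, 212 and 201.98 TPM in CT26 and 0.04, 0.01 and 0.04 TPM in MC38, and Grem1, a BMP antagonist, was at 120 ± 9.45 and 35.1 ± 3.18 TPM. The receptor Tgfbr2 and the transducer Smad3 were at 50.5 against 22.5 TPM and 24.8 against 9.88 TPM. Members on the MC38 side that stayed under the fold included Smad7, the inhibitory SMAD, at 7.04 ± 1.05 and 13.7 ± 0.165 TPM, and Inhba, the activin A subunit, at 21.2 ± 3.75 and 38.2 ± 5.24 TPM. Smad4, the shared transducer, was at 34.8 ± 1.06 and 44.1 ± 0.851 TPM.

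Of 22 tested collagens and matrix proteins, 8 were called higher in CT26 and 4 higher in MC38, and the summed level of the 26 listed genes was 8023 ± 480.0 TPM in CT26 and 1459 ± 89.1 TPM in MC38. In CT26, Col1a2, a chain of type I collagen, read 219, 225 and 217 TPM against 0.03, 0.08 and 0.08 TPM in MC38, and Col1a1, the other chain, was at 54.7 ± 1.83 against 0.0133 ± 0.00577 TPM. In MC38, Col6a3, a chain of type VI collagen, read 130, 158 and 126 TPM against 0.18, 0.21 and 0.17 TPM in CT26, and Dcn (decorin) was at 66.2 ± 4.94 against 2.78 ± 0.32 TPM. Col3a1 was abundant in both, at 212 ± 7.83 and 167 ± 9.03 TPM. Tnc (tenascin C) was at 33.7 ± 2.08 TPM in CT26 and 0.0167 ± 0.00577 TPM in MC38. Spp1 (osteopontin) was the most abundant listed matrix transcript of CT26, at 6489, 6011 and 5536 TPM against 355, 438 and 378 TPM in MC38. This gene alone made up most of the summed level of CT26. The median log2 difference of the list was 0.16, with 11 members higher in CT26 and 9 in MC38 by the test without the fold.

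Of the remodelling enzymes, Mmp3 and Mmp10, the stromelysins, were at 79.8 ± 1.38 and 17.7 ± 0.648 TPM in CT26 and under 1 TPM in MC38, and Plau, the urokinase activator, was at 24.7 against 0.41 TPM. Their inhibitor Timp1 read 1252, 1288 and 1319 TPM in CT26 and 109, 99.2 and 103 TPM in MC38. Mmp14, the membrane type protease, lay on the MC38 side at 47.7 ± 0.802 and 119 ± 0.4 TPM, and so did Adam8, at 0.71 ± 0.203 and 41.6 ± 0.522 TPM. Itga3, a laminin receptor chain, was at 70.0 ± 3.31 TPM in CT26 and 4.32 ± 0.601 TPM in MC38, whereas Alcam and Ncam1, cell adhesion molecules, were at 43.5 and 7.74 TPM in MC38 with Ncam1 listed at 0 in CT26.

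Mesenchymal markers had 7 calls higher in CT26 and 0 higher in MC38 among 15 tested. S100a4, a calcium-binding protein of motile cells, was at 5354 ± 74.7 TPM in CT26 and 222 ± 5.42 TPM in MC38, Sparc at 663 ± 6.74 and 305 ± 10.1 TPM, and Twist1, a factor of mesenchymal transition, at 64.8 ± 1.15 and 28.7 ± 0.732 TPM. Vim (vimentin) read 4495, 4428 and 4363 TPM against 2237, 2176 and 2229 TPM, a log2 difference just under the fold (adjusted p = 4.98e-08). Snai1 and Zeb2, other factors of the transition, lay on the MC38 side under the fold, at 25.1 against 35.5 TPM and 13.2 against 21.5 TPM.

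Receptor tyrosine kinases and their ligands were called 6 times in each direction among 24 tested. CT26 had more of the EGF receptor ligands Areg, Ereg and Hbegf, at 74.1, 80.9 and 92.1 TPM against 8.16, 11.2 and 27.4 TPM, and read 5.22, 5.34 and 5.26 TPM of Tgfa, which was listed at 0 in MC38. The receptor Egfr itself was at 4.19 and 3.62 TPM and did not pass the test. MC38 had more Kitl, the ligand of KIT, at 41.6 ± 4.99 against 2.58 ± 0.433 TPM.

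Components and feedback inhibitors of the RAS and ERK cascade had 7 calls higher in CT26 and 0 higher in MC38 among 22 tested. Mapk3 (ERK1) read 286, 289 and 296 TPM in CT26 and 59.3, 56.5 and 57.9 TPM in MC38 (log2 difference 2.31, SE 0.028, adjusted p = 4.09e-09). The phosphatase Dusp4, the inhibitors Spry4 and Spred1 and the factor Etv4, which ERK signalling induces, were at 51.3, 34.7, 43.3 and 154 TPM in CT26 and 11.3, 9.82, 16.9 and 57.7 TPM in MC38. Dusp6, another phosphatase induced by ERK, was at 92.0 and 84.6 TPM, and Fosl1 lay on the MC38 side at 124 and 232 TPM, both without a call.

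Targets of p53 and cell cycle inhibitors had 8 calls higher in CT26 and 2 higher in MC38 among 22 tested. Cdkn1a, the p21 inhibitor, read 145, 151 and 152 TPM in CT26 and 28.9, 28.2 and 28.3 TPM in MC38 (log2 difference 2.35, SE 0.03, adjusted p = 4.89e-09). Ccng1, a cyclin G that p53 induces, was at 134 ± 6.14 and 25.5 ± 0.729 TPM, Zmat3, a p53 target, at 30.1 ± 0.61 and 7.61 ± 0.175 TPM, and Trp53 itself at 182 ± 2.46 and 114 ± 3.41 TPM. Bbc3 and Sesn2, also p53 targets, lay on the MC38 side without a call.

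The neighbouring inhibitor genes Cdkn2a and Cdkn2b on chromosome 4 were listed at 0 in the 3 CT26 libraries. In MC38, Cdkn2a (chr4:89274471-89294653, minus strand) read 1.13, 0.99 and 1.23 TPM and Cdkn2b (chr4:89306299-89311039, minus strand) 5.18, 5.22 and 4.82 TPM. Both were also at 0 in B16 and LLC and at 66.7 and 11.2 TPM in EG7. Mtap, the methionine salvage enzyme gene beside them (chr4:89137122-89181081, plus strand), was abundant in both lines, at 330 ± 4.49 TPM in CT26 and 190 ± 4.05 TPM in MC38, so the zero values of CT26 did not extend to it.

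Wnt genes were called 3 times higher in CT26 and 4 times higher in MC38 among 18 tested, and their median of -0.06 became 0.004 with median-ratio scaling, as that of the receptor tyrosine kinase list went from -0.06 to 0.006. The ligands of MC38 stood out: Wnt7b read 131, 127 and 129 TPM against 0.51, 0.53 and 0.57 TPM in CT26, and Wnt5a was at 39.3 ± 1.83 against 3.08 ± 0.255 TPM. Axin2, the common target of the beta-catenin branch, was low in both, at 2.09 and 1.89 TPM, and did not pass the test. Apc, the tumour suppressor of that branch, was at 6.91 ± 0.776 and 10.2 ± 1.81 TPM, a log2 difference of -0.49 (adjusted p = 0.01).

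Cholesterol synthesis genes were higher in CT26, with 9 of 22 tested members called higher in CT26, 1 higher in MC38 and 18 higher in CT26 by the test without the fold. Fdps, which makes farnesyl pyrophosphate, read 201.1, 199 and 212 TPM in CT26 and 71.9, 70.2 and 69.8 TPM in MC38. Hmgcs1, which starts the pathway, read 48.7, 46.2 and 45.0 TPM against 14.2, 16.1 and 15.0 TPM, a log2 difference of 1.56 (SE 0.055, adjusted p = 3.24e-07). Nsdhl, a late demethylation enzyme, and Insig1, the feedback sensor, were at 22.03 and 45.4 TPM in CT26 and 5.54 and 17.0 TPM in MC38. The libraries of the lines did not overlap in any of these 4 genes, as in 81.7% of all genes tested.

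The Hmgcs1 promoter window (chr13:119690101-119690400, plus strand, RefSeq on GRCm38.p6) is shown for the CCAAT box that sterol-regulated promoters share, with the box in capitals; it is read as its complement ATTGG at all 4 matches.
Hmgcs1: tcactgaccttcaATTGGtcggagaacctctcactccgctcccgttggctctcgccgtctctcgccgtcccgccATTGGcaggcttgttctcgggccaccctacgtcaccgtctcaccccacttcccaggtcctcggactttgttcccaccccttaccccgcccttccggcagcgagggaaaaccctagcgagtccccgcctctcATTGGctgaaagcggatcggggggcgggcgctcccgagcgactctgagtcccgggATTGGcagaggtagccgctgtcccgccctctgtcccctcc
CCAAT, searched on both strands, was in the windows of 15 of the 15 cholesterol genes that have a window, against 41.1% of all 27025 genes. The sterol element letters TCACCCCAC were in 1 of the 15, Hmgcs1, and in 0.614% of all genes. Since all 15 held the CCAAT box, its presence could not separate called from uncalled cholesterol genes.

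Glycolysis and hypoxia genes were called higher in MC38 for 8 of 22 members and higher in CT26 for 1. Pfkp, the platelet phosphofructokinase, was at 4.47 ± 0.27 TPM in CT26 and 22.1 ± 1.37 TPM in MC38, Slc2a3, the glucose transporter GLUT3, at 0.0333 ± 0.0252 and 10.2 ± 1.26 TPM, Pdk1, a kinase that holds pyruvate from the mitochondria, at 17.6 ± 0.933 and 43.3 ± 2.93 TPM, and Egln3, an oxygen sensor, at 0.53 ± 0.0436 and 11.9 ± 0.312 TPM. Ldha and Pkm, major enzymes of the pathway, lay on the CT26 side without a call, at 1557 against 1097 TPM and 2174 against 1386 TPM. Gapdh was among the 8 calls, and its value is taken up with the pseudogenes below.

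NRF2 and detoxification genes were called in both directions, 7 of 24 higher in CT26 and 4 higher in MC38. Ephx1, an epoxide hydrolase, was at 87.7 ± 1.75 TPM in CT26 and 0.21 ± 0.0854 TPM in MC38, Aldh3a1, an aldehyde dehydrogenase, at 29.9 ± 1.21 and 0.0167 ± 0.0289 TPM, and Nfe2l2, which encodes NRF2, at 175 ± 1.74 and 55.4 ± 0.305 TPM. Cbr3, a carbonyl reductase, and Slc7a11, the cystine transporter, lay on the MC38 side at 5.25 against 33.9 TPM and 1.48 against 8.23 TPM.

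Splicing regulators, the machinery on which RECTAS is meant to act, had 2 calls in each direction among 30 tested, and 10 members did not pass the test. Mbnl1, the muscleblind factor that sets exon use in differentiated cells, read 104, 99.5 and 85.1 TPM in CT26 and 30.6, 33.4 and 31.2 TPM in MC38, a log2 difference of 1.56 (SE 0.076, adjusted p = 1.62e-06). Its relative Mbnl3 lay the other way, at 0.183 ± 0.0666 and 8.98 ± 0.881 TPM, and Khdrbs3, an RNA-binding factor, was listed at 0 in CT26 and read 7.71, 9.73 and 9.27 TPM in MC38. Rbfox2, another exon selector, was at 87.9 ± 3.7 and 42.004 ± 3.41 TPM. The kinase Clk1, which phosphorylates SR proteins, was at 29.6 and 36.5 TPM and did not pass the test (log2 difference -0.29, adjusted p = 0.0893), and the SR protein genes Srsf1 to Srsf7 all stayed under the fold.

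The Hox genes encode factors that pattern the body axis. Of 24 tested Hox genes, 13 were called higher in MC38 and 2 higher in CT26, with a median log2 difference of -1.23, and the summed level of all 39 was 74.1 ± 1.56 TPM in CT26 and 253 ± 0.417 TPM in MC38. Hoxc10 read 0.04, 0 and 0 TPM in CT26 and 41.9, 40.9 and 39.9 TPM in MC38. Hoxd13 read 0.01, 0 and 0 TPM against 19.1, 19.8 and 20.8 TPM, and Hoxc11 was listed at 0 in CT26 and at 12.2, 12.2 and 11.7 TPM in MC38. Hoxa7 read 1.80, 1.89 and 1.91 TPM against 29.9, 28.5 and 30.6 TPM. The lines did not overlap in any of these 4 Hox genes, as in 81.7% of all genes tested. The other MC38 calls were Hoxa4, Hoxa9, Hoxa10, Hoxa11, Hoxb13, Hoxc9, Hoxd4, Hoxd9 and Hoxd10, and the calls on the CT26 side were Hoxc8 and Hoxb9. Hoxc10 and Hoxc8 overlap Hoxc5 on the same strand. Of 9 tested imprinted genes, Grb10, a growth factor adaptor, was at 0.0367 ± 0.0551 TPM in CT26 and 41.8 ± 0.522 TPM in MC38, and Plagl1 and Sgce were also called higher in MC38; H19 and Igf2 were below 0.2 TPM in both lines.

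Some transcripts were present in 1 line and listed at 0 in every library of the other: 37 genes with a mean of 10 TPM or more in CT26 were at 0 in MC38, and 47 the other way. The neurofilament genes Nefl and Nefm, neighbours on chromosome 14 that overlap on opposite strands, read 97.4, 97.6 and 95.8 TPM and 104, 106 and 96.1 TPM in CT26. Trbc2, a constant segment of the T cell receptor beta chain, read 72.8, 78.8 and 77.9 TPM in CT26, more than the mean of 2.88 TPM in EG7, a T cell lymphoma line, although Cd3e was listed at 0 in CT26. Ifi202b, an interferon-inducible gene, read 68.6, 62.0 and 52.8 TPM. In MC38, Klra4, a Ly49 receptor gene of natural killer cells, read 112, 122 and 113 TPM, Cox6a2, the muscle form of a cytochrome oxidase subunit, 69.1, 65.6 and 60.6 TPM, and Rnf130, a ubiquitin ligase, 30.8, 33.0 and 32.9 TPM. Xist and the Y-linked genes Ddx3y, Eif2s3y, Kdm5d and Uty were at or near 0 in both lines.

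Processed pseudogenes, copies of messenger RNAs inserted into the genome, formed a class of their own. Of 536 tested, 105 (19.6%) were called higher in CT26 and 38 (7.09%) higher in MC38, and at a log2 difference of 3 or more the counts were 56 and 4. Their summed level was 52260 ± 1409 TPM in CT26 and 21690 ± 572 TPM in MC38. Among the other lines it was 50710 TPM in WEHI3, which like CT26 is known to come from a BALB/c mouse, and 19920 to 23930 TPM in the 4 others.

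The gene of ribosomal protein L29 shows the pattern. Rpl29 (chr9:106429454-106431568, plus strand) read 53.6, 52.6 and 57.6 TPM in CT26 and 2066, 1982 and 1943 TPM in MC38. Its 4 tested processed pseudogenes summed to 1953, 1955 and 1975 TPM in CT26 and 18.3, 14.3 and 17.0 TPM in MC38. Parent and pseudogenes together gave 2016 ± 14.6 TPM and 2013 ± 64.0 TPM, a log2 difference of 0.00. In WEHI3 the parent was at 58.0 TPM and the pseudogenes at 2406 TPM, and in B16, EG7, LLC and Pan02 the parent was at 1572 to 3460 TPM and the pseudogenes at 11.6 to 28.7 TPM.

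The leading Rpl29 pseudogene, Gm8210 (chr1:43189156-43189638, plus strand, 1016 ± 92.8 TPM in CT26 and 0 in MC38), matched the Rpl29 coding sequence over 483 aligned bases with 3 mismatches and no gap (99.4% identity). A stretch of 60 bases, from base 23 to base 82 of the coding sequence in the GENCODE transcripts, is shown because it holds 1 of the differing bases, in capitals.
Rpl29: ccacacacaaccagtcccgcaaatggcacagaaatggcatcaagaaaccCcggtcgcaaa
Gm8210: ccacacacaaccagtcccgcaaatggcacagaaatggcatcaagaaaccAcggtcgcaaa
A read inside such a stretch is placed by at most that base.

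**Figure D4:**
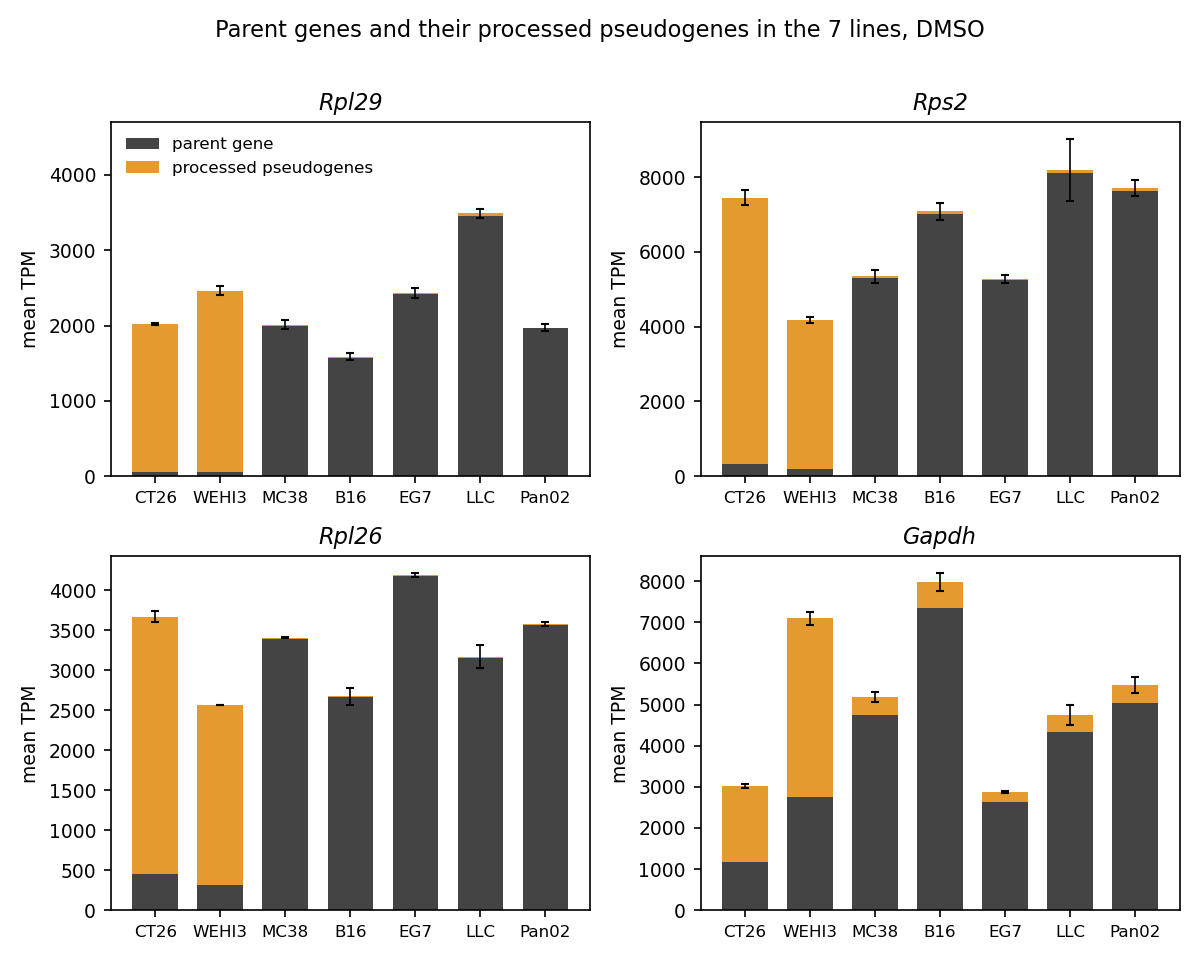
Mean TPM of 4 parent genes (dark) and the sum of their processed pseudogenes (orange) stacked for the DMSO libraries of the 7 lines, with whiskers for the SD of the family sum over 3 libraries. In CT26 and WEHI3 the pseudogenes hold most of the Rpl29, Rps2 and Rpl26 families, and in MC38 the parents hold nearly all of them.

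In other families of highly expressed genes the parent was also lower and the pseudogenes higher in CT26, but the family sums were not always alike. Rps2 was at 312 ± 4.08 TPM in CT26 and 5291 ± 173 TPM in MC38, and its 7 pseudogenes at 7137 ± 188 and 57.3 ± 3.62 TPM. The Rps2 family was at 7449 ± 192 and 5348 ± 175 TPM, and the Rpl21 family at 3153 ± 52.8 and 1595 ± 38.9 TPM. Rpl26 was at 455 ± 9.63 and 3397 ± 3.14 TPM, its pseudogene Gm15772 at 3215 ± 60.2 and 10.6 ± 2.55 TPM, and the family at 3671 ± 69.2 and 3408 ± 4.87 TPM. For Gapdh the parent was at 1180 ± 5.14 and 4751 ± 121 TPM and the family at 3025 ± 46.9 and 5192 ± 122 TPM, so the log2 difference of -2.01 for the parent was -0.78 for the family. Rpl27 differed little in any of its parts, with pseudogenes at 3115 ± 296 and 3290 ± 55.3 TPM.

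A tested pseudogene was joined to its best-matching protein-coding gene as parent (at least 95% identity over 50% of the shorter transcript). Whether that gene is the source of the copy was not tested. The 485 pseudogenes with a match formed 336 families, and 61 of these had a pseudogene sum of 100 TPM or more in a line. The largest family difference of the 61 was that of Eno1b and Gm4735, at 1619 and 26.7 TPM. The pseudogene sums differed at least 2-fold in 28 of the 61, while the family sums differed at least 2-fold in 6. In 21 of those 28 the parent lay on the other side by sign alone, with no fold required of it. Such parent differences ranged widely in size, from a log2 of -5.17 for Rpl29 to -0.05 for Tma7. Tma7 itself was at 411 and 427 TPM, and its family at 820 and 430 TPM. The median size of the log2 difference was 0.61 for the pseudogene sums and 0.32 for the family sums. The level of a parent or pseudogene with near-identical copies depends on how reads were divided between the copies, so these single-gene values are uncertain; the part of strain and of processing in the pattern was not tested. With the test limited to protein-coding genes, an alternative chosen after seeing the data, 1288 genes were higher in CT26 and 1382 in MC38. That limit leaves out the pseudogenes but keeps their parents, such as Rpl29 and Rps2 with log2 differences of -5.17 and -4.08. The uncertainty of the parents thus remains in these counts. Rpl39l, a ribosomal protein gene among the 12 of CT26, was at 226 TPM in CT26, 206 TPM in WEHI3 and at most 0.03 TPM in the other 5 lines; no near-identical copy of it was found at the same threshold.

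Neighbouring genes tended to differ in the same direction over whole stretches of chromosomes. On chromosome 10, 187 of 580 tested genes were called higher in MC38 and 37 higher in CT26, the median log2 difference was -0.61, and 22 of its 23 runs of 25 neighbouring genes had a median below 0. Chromosomes 16 and 18 had medians of -0.54 and -0.49. Chromosome 7 lay furthest on the CT26 side, with a median of 0.25. Of its 901 tested genes, 143 were called higher in CT26 and 50 higher in MC38. Over all genes tested, 12.3% were called higher in CT26 and 12.6% higher in MC38.

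Of 484 runs of 25 neighbouring genes, 23 had a median above 0.5 and 62 a median below -0.5, beside a median of -0.06 over the runs. The highest was the first run of the X chromosome (chrX:6399854-8252406), with a median of 1.08, 14 genes called higher in CT26 and 0 higher in MC38, and the next run of the X chromosome followed at 0.97. In the first, Wdr13 was at 14.5 ± 0.84 TPM in CT26 and 2.99 ± 0.237 TPM in MC38, Wdr45, an autophagy factor, at 20.8 ± 0.82 and 5.4 ± 0.897 TPM, and Ftsj1, a transfer RNA methyltransferase, at 33.1 ± 1.44 and 9.07 ± 0.467 TPM. The lowest run lay on chromosome 10 (chr10:80258151-80795461), with a median of -1.19 and 13 genes called higher in MC38 against 0 in CT26, followed by a run on chromosome 15 (chr15:31446383-36283147) at -1.18. In the first of these, Reep6, a protein that shapes the endoplasmic reticulum, was at 4.49 ± 0.265 and 36.1 ± 1.22 TPM, and Adamtsl5 at 5.72 ± 0.644 and 34.3 ± 1.73 TPM. In the run on chromosome 15, Laptm4b, a lysosomal membrane protein, was at 25.5 ± 1.12 and 128 ± 4.07 TPM. Gm24523 and Gm6361, also leading members of that run by size of difference, did not pass the test (limma adjusted p = 0.113 and 0.0885). DNA copy number was not analysed here, and its part in these stretches was not tested.

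**Figure D5:**
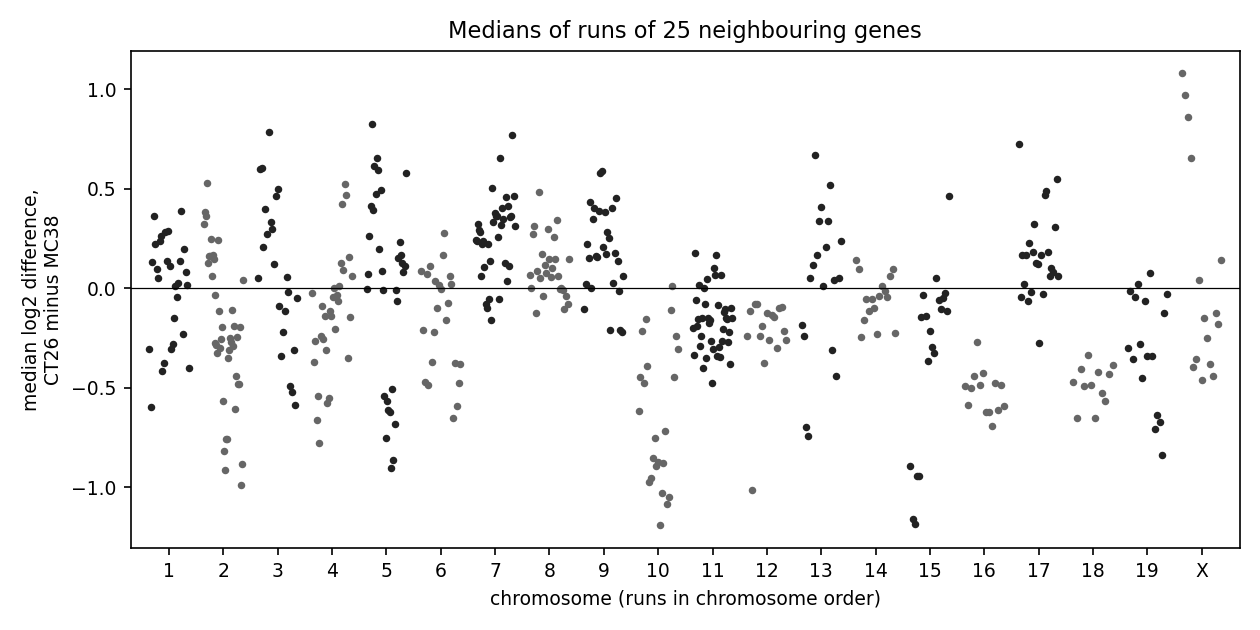
Median log2 difference (CT26 minus MC38) of each of 484 runs of 25 neighbouring tested genes, ordered along each chromosome from left to right. Most runs of chromosomes 10, 16 and 18 lie below 0, and the first 4 runs of the X chromosome lie above 0.5.

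The RECTAS libraries of the same lines gave a second set of 3 against 3 libraries. There 1607 genes were called higher in CT26 and 1522 higher in MC38. Of the DMSO calls, 1423 higher in CT26 (93.5% of the DMSO calls and 88.6% of the RECTAS calls) and 1380 higher in MC38 (88.3% and 90.7%) were called again in the same direction, and 0 genes were called in opposite directions. Among the 7 lines, mean DMSO profiles of CT26 and MC38 correlated at r = 0.868 over 13525 genes, about as closely as CT26 and LLC (0.870) and less closely than LLC and MC38 (0.902), which are descriptions across genes; whether every line was processed with the same settings is not stated.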

How the data were processed

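RNA-seq values of 42 libraries were deposited as 1 table per library, and the authors' values are TPM. Per the submitters' processing notes, HISAT2 2.2.0, RSEM 1.3.0 and the build GRCm38 were used; the sources used here give neither the roles of the tools, nor the strand setting of the counting, nor the depth. Gene positions came from GENCODE M21 (GRCm38), matching 55141 of 55401 gene IDs. The 6 DMSO libraries of CT26 and MC38 were fitted with limma 3.58.1 (R 4.3.3) on log2(TPM + 1) for genes whose mean reached 1 TPM, with an intensity trend and Benjamini-Hochberg adjustment over all 12365 genes; the procedure was tested on simulated data. Near-identical transcripts were found with BLAST 2.17.0.

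Named genes were the 12 largest differences of each direction with non-overlapping groups, the 4 members of each list with the smallest p, the 6 most abundant genes listed at 0 in the other line, 20 fixed genes and leading members of the extreme runs; other members are given to describe a list and were picked with their values in view. The members and lists were chosen with earlier results of these data known. Alternatives were other pseudocounts, filters, scalings and variance models, left-out libraries and the RECTAS libraries. Some genes are not reported here.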

Additional observations from a re-analysis of the deposited data

How the results depend on the processing

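The counts of genes higher in CT26 (1522) and higher in MC38 (1563) moved by less than 1.5 times under pseudocount 0.1 (1708 and 1852), no filter (1652 and 1672), median-ratio scaling (1623 and 1429), limma treat (1229 and 1126) and protein-coding genes alone (1288 and 1382), and by more with a filter at a mean of 5 TPM (1013 and 1033), where fewer genes are tested. Of 928 counts of called list members over the 29 lists and these settings, 45 moved by more than 1.5 times. Leaving out each library gave 1463 to 1580 and 1492 to 1620 genes, and a difference in mitochondrial share from -3.45 to -3.16 percentage points beside -3.29; in the RECTAS libraries it was -3.003. The lowest median of neighbouring genes was -1.07 with runs of 50 genes, and the highest was 1.12 in the RECTAS libraries; the causes were not tested. The replicate numbers did not pair the libraries (correlations of -0.00491, 0.0294 and 0.103 between same-numbered libraries), and the fit with the replicate number as a block called 1528 and 1578 genes. Snora21, a small nucleolar RNA read from polyadenylated RNA, was called higher in MC38 on 34.8, 36.2 and 0 TPM against 0 in CT26 and had a log2 difference of 0.28 in the RECTAS libraries. Of 148 named genes tested, 13 changed their call under at least 1 setting, among them Cd14, Cd274, Cdk1, Irf1, Ptges, Rbfox2 and Vim, which lie near a log2 difference of 1 or at low levels.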

Other observations

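Some genes known from other tissues differed between the lines. Flt1, the VEGF receptor of endothelium, read 9.22, 9.05 and 8.17 TPM in CT26 and 0.09 TPM in each MC38 library, while the other 9 endothelial genes were below the mean of 1 TPM; Flt1 was also at 8.50 TPM in EG7 and 8.98 TPM in WEHI3. Mitf, the melanocyte and osteoclast factor, was at 5.89 ± 0.565 TPM in CT26 and 0.343 ± 0.0666 TPM in MC38, beside 104 TPM in B16, a melanoma line. Mpo, the peroxidase of myeloid cells, read 3.32, 3.95 and 3.59 TPM in CT26 and was listed at 0 in MC38. Rhox5, a homeobox gene of the germline and of many tumour lines, was abundant in both, at 806 ± 29.9 TPM in CT26 and 366 ± 6.73 TPM in MC38 (log2 difference 1.14, SE 0.032, adjusted p = 1.24e-07 by limma). Taf7l, a testis form of a transcription factor subunit, lay on the MC38 side at 0.03 ± 0.0361 and 2.84 ± 0.408 TPM.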
